A study of Mus musculus with 6 samples.

Results

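Interferon-stimulated genes are the genes that cells switch on when an interferon binds its receptor. A list of 42 such genes and of the type I interferon receptor genes was looked up by symbol in a mouse RNA-seq count table of 26106 genes. It matched 41 rows, and the pseudogene Eif2ak2-ps was not analysed here. The table held 6 libraries of wild-type macrophages grown from the bone marrow of male C57BL/6 mice aged 6 weeks. ZM cells (n = 3) were cultured for 2 days with RANKL at 100 ng/mL, M-CSF at 30 ng/mL, 10% serum and 10 µM ZM, named in the series title as ZM-306416, which inhibits VEGF receptor kinases. Ctrl cells (n = 3) had the same culture without ZM, and no vehicle was named for them. RANKL together with M-CSF drives macrophages to become osteoclasts, the cells that resorb bone, so both groups were macrophages under osteoclast induction. The labels do not state whether the 3 libraries of each group are separate cultures or mice, so a p-value here reflects only how far those libraries differ, and that spread may be technical.

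As background, type I interferons bind a receptor made of IFNAR1 and IFNAR2, whose partner kinases TYK2 and JAK1 phosphorylate STAT2 and other transducers. STAT2 works together with IRF9, and their complex binds the interferon-stimulated response element in the promoters of its target genes, while interferon gamma acts through a second element called GAS. Osteoclast precursors make interferon beta in answer to RANKL, and interferon beta restrains osteoclast formation in mice.

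The core of the response element, read as GAAA, then any 2 bases (NN), then GAAA, was searched on both strands of the RefSeq promoter windows of build GRCm38.p6, which run from 250 bases before to 50 bases after each annotated start. RefSeq windows were matched for 31 of the 41 genes, 36 windows in all, and the 10 genes without one were Dhx58, Ifi27l2a, Mx1, Mx2, Oas2, Parp14, Parp9, Rtp4, Usp18 and Zbp1. The core was in 19 of the 36 windows (52.78%), against 1131 of all 32851 windows of the table (3.44%). The GAS letters, TTCNNNGAA, which read the same on both strands, were in 10 of the 36 windows (27.78%) and in 2726 of all windows (8.3%). The 2 motifs were counted separately, and 5 genes had both. The 150 bases before the start are given for 6 genes that differed in direction or in the motif, with each response element core in capitals, or its reverse complement (TTTC, any 2 bases, TTTC). Gbp7 and Gbp3 were lower in ZM cells and had a match. Isg15 is the textbook target, with 3 overlapping matches. Ifitm2 had a match and a positive fold change. Oasl1, lower in ZM cells, and Ifnar2, higher in ZM cells, had none. The regions are chr3:142530186-142530335 for Gbp7, chr3:142559894-142560043 for Gbp3, chr5:114923090-114923239 for Oasl1 and chr16:91372633-91372782 for Ifnar2, all on the forward strand, and chr4:156200819-156200968 for Isg15 and chr7:140955962-140956111 for Ifitm2, both on the reverse strand.
Gbp7: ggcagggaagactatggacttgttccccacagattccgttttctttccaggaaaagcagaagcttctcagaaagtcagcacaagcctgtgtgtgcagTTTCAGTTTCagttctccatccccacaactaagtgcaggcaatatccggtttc
Gbp3: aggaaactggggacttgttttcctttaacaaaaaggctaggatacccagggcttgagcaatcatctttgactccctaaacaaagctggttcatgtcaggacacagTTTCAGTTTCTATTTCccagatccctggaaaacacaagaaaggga
Isg15: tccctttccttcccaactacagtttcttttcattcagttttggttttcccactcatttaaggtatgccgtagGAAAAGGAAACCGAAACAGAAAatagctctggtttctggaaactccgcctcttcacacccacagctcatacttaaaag
Ifitm2: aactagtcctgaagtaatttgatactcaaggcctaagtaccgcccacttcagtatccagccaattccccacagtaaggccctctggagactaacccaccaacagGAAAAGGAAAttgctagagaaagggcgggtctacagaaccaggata
Oasl1: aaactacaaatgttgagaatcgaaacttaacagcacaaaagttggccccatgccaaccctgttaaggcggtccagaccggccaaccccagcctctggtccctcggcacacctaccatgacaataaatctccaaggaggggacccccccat
Ifnar2: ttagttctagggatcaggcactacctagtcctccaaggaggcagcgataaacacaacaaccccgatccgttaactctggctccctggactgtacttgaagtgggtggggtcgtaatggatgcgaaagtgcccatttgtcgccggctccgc

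Genes with and without the core were both found among those that fell. Of the 18 genes with a match, 2 were lower in ZM cells by the test given below and none was higher, and their median log2 fold change, ZM over Ctrl, was −0.48, with a range of −1.14 to 0.98. Of the 13 genes without a match, 3 were lower and 1 was higher, with a median of −0.54. By the same test, 5.44% of all genes tested were lower and 5.54% higher. A match is a run of letters in a window and not a shown binding site. The search took exact letters only, so a window without a match may hold a run 1 base off, as that of Ifi44 does. The map of matches by distance from the gene start shows that the matches of Gbp3, Gbp2, Gbp7 and Isg15 all lay within the 80 bases before the start.

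**Figure D1:**
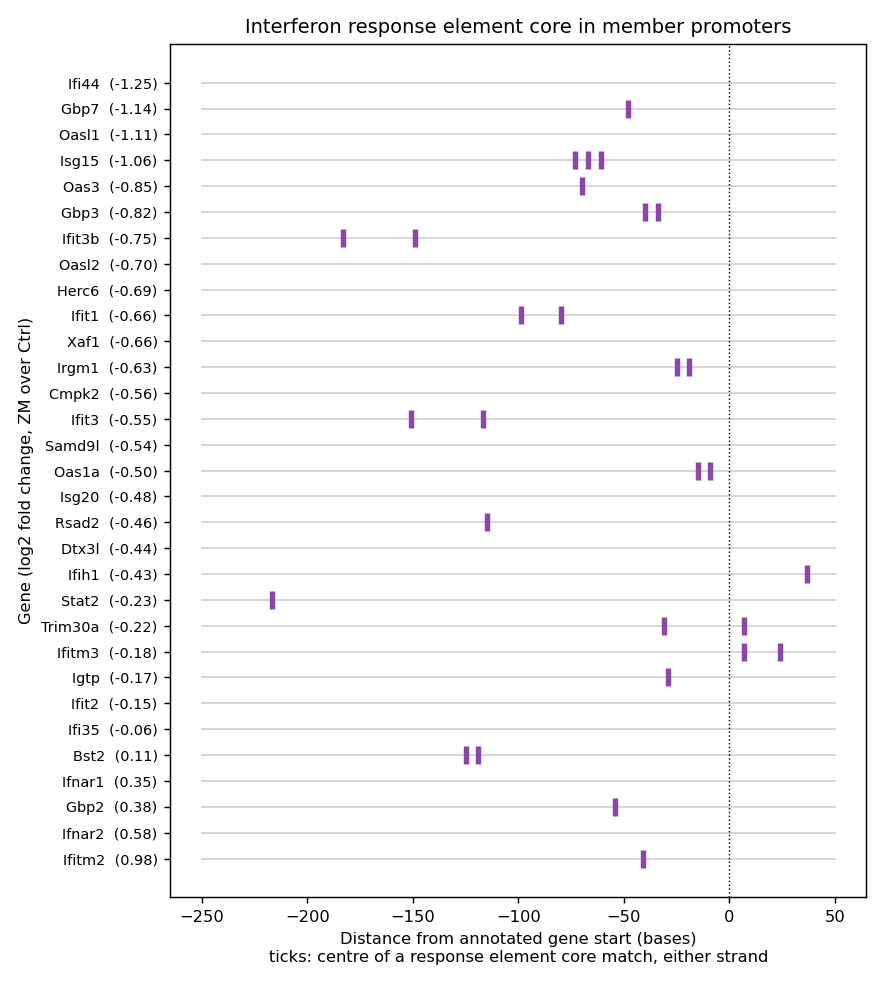
Positions of response element core matches (ticks) in the RefSeq promoter windows, by distance in bases from the annotated start (dotted line), for the 31 genes with a window, ordered by log2 fold change, ZM over Ctrl. Matches are in genes near both ends of the order: Gbp7 (−1.14) and Ifitm2 (0.98) have 1 each, and Ifi44 (−1.25) has no exact match.

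Total counts were 51329237 to 54256377 in ZM libraries and 45512004 to 49613493 in Ctrl libraries. Macrophage markers were present in all libraries, with a summed level of 18671 to 38800 CPM (counts scaled to a common library total) in ZM cells and 10183 to 11603 CPM in Ctrl cells, and 8 of 8 osteoclast markers were lower in ZM cells (sums of 473 to 849 CPM, against 4661 to 4944 CPM in Ctrl cells). The defining genes of plasmacytoid dendritic cells, a strong source of interferon, were in part near 0: Siglech, Ccr9, Klk1, Ly6d and Pacsin1 were under 1 CPM in every library. The other 4 of the 9 markers listed for that cell type were present, so the sum was 53.3 to 67.4 CPM in ZM cells and 70.4 to 74.4 CPM in Ctrl cells, with Cox6a2 and Spib called higher in ZM cells and Tcf4 and Runx2 not called. At an unadjusted p under 0.05 in edgeR, 2 of the 6 tested were higher and 2 lower, against 17.3% and 14.8% of all genes tested. DESeq2 gave the same counts, against 11.0% and 10.2% of all genes. Summed monocyte markers were at 21.9 to 26.2 CPM in ZM cells and 42.8 to 48.8 CPM in Ctrl cells (1 of 2 tested lower), endothelial markers at 7.44 to 21.5 CPM in ZM cells and 41.4 to 51.9 CPM in Ctrl cells (1 of 4 lower), and megakaryocyte markers at 18.8 to 38.6 CPM in ZM cells and 5.68 to 8.92 CPM in Ctrl cells (2 of 3 higher). The part of any of these in the results was not tested. ZM replicate 3 stood apart from the other ZM libraries, at −87.8 on the first principal component, against −28.3 and −4.29 for ZM replicates 1 and 2 and 37.4 to 43.6 for Ctrl libraries. In bulk RNA, fewer cells of a type and less RNA per cell cannot be told apart.

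Most interferon-stimulated genes had lower levels in ZM cells, and a minority passed the test. All 41 genes passed the filter on low counts. Of them, 7 were lower in ZM cells (Gbp7, Gbp3, Ifi44, Oasl1, Herc6, Rtp4 and Dhx58) and 1, the receptor gene Ifnar2, was higher, with an adjusted p under 0.05 in edgeR's quasi-likelihood test. These are 17.1% and 2.44% of the 41, against 5.44% of the 15590 genes tested that were lower and 5.54% that were higher, or 11.0% in either direction. The list was chosen with earlier results of these data known, so these shares describe it and are no independent test. A negative log2 fold change was measured for 36 of the 41, and the median was −0.50, against 0.00 over all genes tested. Without the pair of receptor genes the median of the other 39 was −0.54. The levels of the groups did not overlap for 42.9% of all genes tested. They did not overlap and were lower in ZM cells for 19 of the 41 (46.3%), against 21.4% of all genes. They did not overlap and were higher in ZM cells for 3 (7.32%), against 21.5% of all genes, and these 3 were Ifnar1, Ifnar2 and Ifitm2. DESeq2 called 19 of the 41 lower and 3 higher, against 10.2% and 11.0% of all genes. At an unadjusted p under 0.05 in edgeR there were 26 of the 41, against 32.0% of all genes tested (14.8% lower and 17.3% higher), and these shares are the background for each such count below. The shares of all genes called by edgeR and by DESeq2 serve likewise for the counts of calls below.

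The 8 calls depended on the Ctrl libraries. Without Ctrl replicate 1 or without Ctrl replicate 3 none of the 41 genes was called, and without Ctrl replicate 2 Gbp7 alone was. In these fits few genes of the whole table were called (180 without Ctrl replicate 1, 224 without Ctrl replicate 2 and 148 without Ctrl replicate 3, against 1711 with all libraries). Without ZM replicate 1, 16 of the 41 were called lower and 0 higher, while the count over the whole table fell to 669 genes (2.45% of those tested were lower and 1.72% higher). Without ZM replicate 2, 9 were lower and 3 higher, against 15.3% lower and 16.1% higher among the 5023 genes then called over the table. Without ZM replicate 3, 17 were lower and 2 higher, against 9.56% lower and 9.91% higher over the table (3120 genes called).

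**Figure D2:**
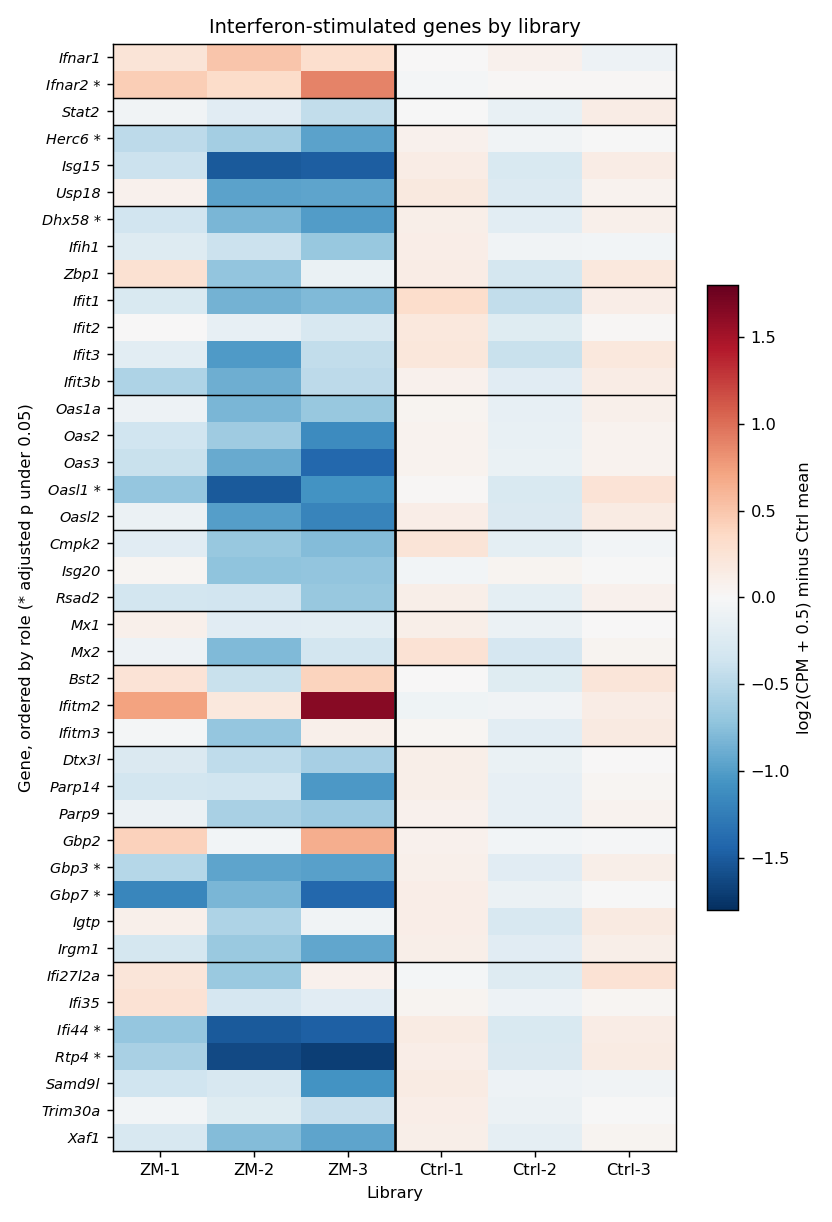
Level of each of the 41 genes in each library as log2(CPM + 0.5) minus the mean of the Ctrl libraries (colour, log2 units), ZM libraries at the left and Ctrl libraries at the right, genes ordered by role and asterisks for an adjusted p under 0.05. Most rows are blue in ZM libraries, palest in ZM-1, while Ifnar1, Ifnar2 and Ifitm2 are red in all 3.

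In each group 1 library held the same place for most of these genes. ZM replicate 1 was the highest of the ZM libraries for 32 of the 41 genes (78.0%), against 21.8% of all genes tested. Ctrl replicate 2 was the lowest of the Ctrl libraries for 37 of the 41 (90.2%), against 32.9% of all genes. The other places were shared: ZM replicates 2 and 3 were each the lowest ZM library for 20 genes, and Ctrl replicates 1 and 3 were the highest Ctrl library for 23 and 15. The median difference of the 41 genes from the Ctrl mean, on the log2 scale, was −0.19, −0.67 and −0.68 in ZM replicates 1, 2 and 3, and 0.10, −0.17 and 0.06 in Ctrl replicates 1, 2 and 3. ZM replicate 1 and Ctrl replicate 2 thus lay next to each other, with medians that differed by little. The same medians over all genes tested lay between −0.02 and 0.01. The SD between libraries had a median of 25.1% of the mean in ZM cells and 10.4% in Ctrl cells, against 19.3% and 6.31% over all genes. Summed over the 41 genes, the level was 2758, 2158 and 2325 CPM in ZM replicates 1, 2 and 3, against 3126, 2681 and 3139 CPM in Ctrl replicates 1, 2 and 3. ZM replicate 1 was above Ctrl replicate 2 in this sum, so the groups overlapped. Such a sum follows the abundant genes. In ZM replicate 1 and Ctrl replicate 2, Ifitm3 was at 409 and 366 CPM and Ifnar1 at 258 and 232 CPM. Bst2 was at 224 and 163 CPM. Taken one by one, 19 of the 41 genes were lower in ZM cells without overlap.

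Per gene length, the set covered a wide range of levels, with the same genes at the top in both groups. Ifitm3, whose product blocks virus entry at the membrane, had the highest level, with a mean of 531 deposited FPKM (fragments scaled by gene length and library total) in ZM cells and 634 FPKM in Ctrl cells. Bst2, or tetherin, which holds budding virus at the cell surface, followed with 221 FPKM in ZM cells and 216 FPKM in Ctrl cells. Ifi27l2a came next, with 125 FPKM in ZM cells and 139.9 FPKM in Ctrl cells. At the low end, the mean was 0.956 FPKM in ZM cells and 1.37 FPKM in Ctrl cells for Mx2, and 0.953 FPKM in ZM cells and 2.36 FPKM in Ctrl cells for Ifi44. The number of genes under 10 FPKM was 23 of 41 in ZM cells and 18 of 41 in Ctrl cells, and the median gene was at 9.36 FPKM in ZM cells and 11.7 FPKM in Ctrl cells.

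**Figure D3:**
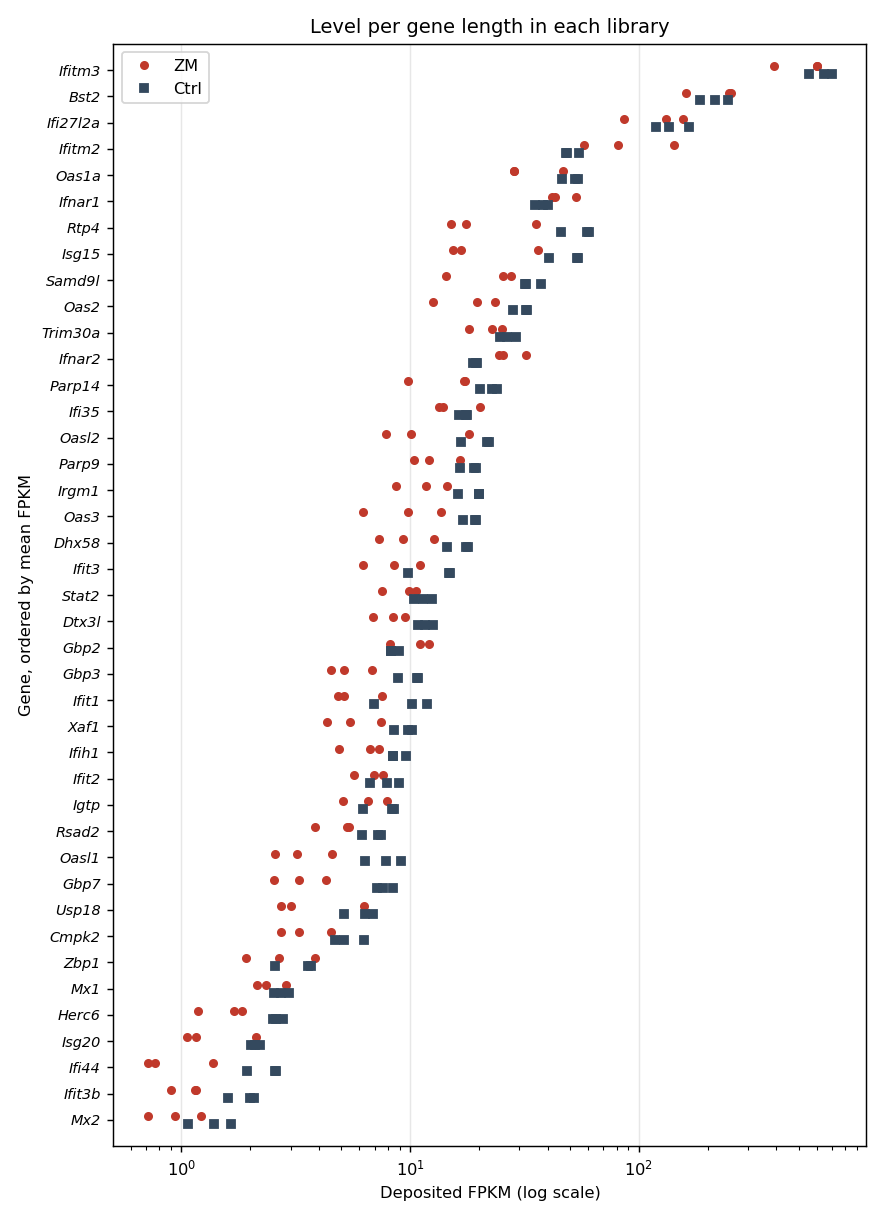
Deposited FPKM of each of the 41 genes in each library (log axis), ZM libraries as red circles and Ctrl libraries as dark squares, genes ordered by mean FPKM. The 3 genes above 100 FPKM in both group means are Ifitm3, Bst2 and Ifi27l2a.

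Both receptor genes had higher levels in every ZM library than in any Ctrl library. Ifnar2, the ligand-binding receptor chain, was at 85.5, 79.5 and 117 CPM in ZM replicates 1, 2 and 3, against 61.3, 63.9 and 63.5 CPM in Ctrl replicates 1, 2 and 3. All ZM libraries were above all Ctrl libraries, with ZM replicate 3 the highest. Ifnar2 rose by 0.58 ± 0.15 (log2 fold change ± SE, edgeR adjusted p = 0.0493), or 1.49-fold. Its call was lost without ZM replicate 1 (0.0926), without any one Ctrl library (0.169 to 0.190), with DESeq2-style size factors (0.0542), with a minimum of 1 CPM (0.0502) and with limma-voom (0.0544). Ifnar1, the other chain, was at 258, 311 and 271 CPM in ZM replicates 1, 2 and 3, against 222, 232 and 206 CPM in Ctrl replicates 1, 2 and 3. The groups did not overlap, with a log2 fold change of 0.35 ± 0.10 that did not pass (edgeR adjusted p = 0.0721). Both lie within 134.7 kb of chromosome 16, at 91372783-91405589 for Ifnar2 and 91485238-91507441 for Ifnar1 (GRCm38).

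The transducer of the set, Stat2, averaged 56.5 ± 7.64 CPM in ZM cells and 66.4 ± 6.29 CPM in Ctrl cells (SD, n = 3 each), and did not pass (log2 fold change −0.23, edgeR adjusted p = 0.245). Tyk2, the kinase bound to IFNAR1, was at 82.1 ± 1.04 CPM in ZM cells and 81.8 ± 1.55 CPM in Ctrl cells (edgeR adjusted p = 0.979). Jak1, the kinase bound to IFNAR2, was at 264 ± 26.0 CPM in ZM cells and 244 ± 1.35 CPM in Ctrl cells (edgeR adjusted p = 0.447). None of these 3 messages passed, so none is shown to differ, or to be equal.

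Among the guanylate-binding and immunity-related GTPases, families that take part in defence against intracellular microbes, Gbp7 and Gbp3 had the smallest adjusted p of the set. Gbp7 was at 18.4, 23.7 and 15.5 CPM in ZM replicates 1, 2 and 3, against 46.0, 39.3 and 41.9 CPM in Ctrl replicates 1, 2 and 3. The highest ZM library was well below the lowest Ctrl library, and Gbp7 fell by 1.14 ± 0.16 on the log2 scale (edgeR adjusted p = 0.00921), or 2.21-fold. Gbp3 was at 22.5, 16.4 and 16.1 CPM in ZM replicates 1, 2 and 3, against 34.5, 28.0 and 34.6 CPM in Ctrl replicates 1, 2 and 3. Again no ZM library reached a Ctrl library, and Gbp3 fell by 0.82 ± 0.16 (edgeR adjusted p = 0.0243). The Gbp7 value was 0.0588 without Ctrl replicate 1 and 0.0608 without Ctrl replicate 3, and that of Gbp3 was 0.0719 to 0.124 without any one Ctrl library.

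Both genes lie with Gbp2 within 107.7 kb of chromosome 3, Gbp7 at 142530342-142550149 and Gbp3 at 142560026-142573209 on the forward strand (GRCm38). Gbp2, at 142620602-142638008, had 27.9, 20.2 and 33.1 CPM in ZM replicates 1, 2 and 3, against 21.9, 20.1 and 20.4 CPM in Ctrl replicates 1, 2 and 3. These groups overlapped and Gbp2 did not pass (log2 fold change 0.38 ± 0.18, edgeR adjusted p = 0.186). Irgm1, a GTPase of autophagy, averaged 68.8 CPM in ZM cells and 106 CPM in Ctrl cells (log2 fold change −0.63, edgeR adjusted p = 0.0563). Igtp averaged 13.5 CPM in ZM cells and 15.2 CPM in Ctrl cells (edgeR adjusted p = 0.582), and 11.8% of its 50-base words also occur in Irgm2, so its counts may be shared with that gene. Over the 5 genes of this role, 2 fell, 3 did not pass and the median log2 fold change was −0.63. Among all genes tested, 5.44% fell.

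The oligoadenylate synthetases sense double-stranded RNA and, in most cases, make the messenger that activates RNase L. All 5 had negative fold changes, with a median log2 fold change of −0.70, and 1 passed, against 5.44% lower among all genes tested. That gene was Oasl1, a family member without synthetase activity, at chromosome 5, 114923240-114937915 (GRCm38). It was at 12.0, 6.57 and 9.09 CPM in ZM replicates 1, 2 and 3, against 20.0, 16.2 and 23.4 CPM in Ctrl replicates 1, 2 and 3. No library overlapped, and Oasl1 fell by 1.11 ± 0.24 on the log2 scale (edgeR adjusted p = 0.0299). Without any one Ctrl library its adjusted p was 0.0785 to 0.134. Oas3 was at 97.1, 68.1 and 47.6 CPM in ZM replicates 1, 2 and 3, against 133, 117 and 134 CPM in Ctrl replicates 1, 2 and 3. Its groups did not overlap and it did not pass (log2 fold change −0.85 ± 0.23, edgeR adjusted p = 0.0584). Oas2 (−0.68, edgeR adjusted p = 0.0591) and Oasl2 (−0.70, edgeR adjusted p = 0.135) were similar in size of the difference. The groups did not overlap for Oas2 and overlapped for Oasl2. All 5 genes of this role had an unadjusted p under 0.05 in edgeR, and DESeq2 called 3 of them lower. Oas1a averaged 66.4 CPM in ZM cells and 94.0 CPM in Ctrl cells (−0.50, edgeR adjusted p = 0.128), and it shares 57.6% of its 50-base words with Oas1g. The sum of Oas1a and Oas1g gave −0.53 ± 0.20 (edgeR adjusted p = 0.125), close to the value of Oas1a alone.

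Dhx58, which encodes LGP2, a helper of the RNA sensors RIG-I and MDA5, was at 41.7, 29.8 and 26.1 CPM in ZM replicates 1, 2 and 3, against 57.2, 46.3 and 56.4 CPM in Ctrl replicates 1, 2 and 3. ZM replicate 1 was the highest of the ZM libraries and still below every Ctrl library. Dhx58 fell by 0.71 ± 0.18 on the log2 scale (edgeR adjusted p = 0.0498), the value closest to the threshold. It did not pass without ZM replicate 2 (0.0536), without a composition factor (0.0542) or without any one Ctrl library (0.121 to 0.188). Ifih1, the gene for MDA5 itself, averaged 52.2 ± 8.24 CPM in ZM cells and 70.2 ± 5.37 CPM in Ctrl cells, without overlap, and did not pass (edgeR adjusted p = 0.0811). Zbp1, a sensor of Z-form nucleic acid, averaged 10.1 CPM in ZM cells and 11.3 CPM in Ctrl cells and overlapped (edgeR adjusted p = 0.701).

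In the ISG15 group, ubiquitin-like ISG15 is joined to other proteins with the help of HERC6 in mice and removed by USP18. Herc6 was at 17.1, 15.5 and 12.0 CPM in ZM replicates 1, 2 and 3, against 25.2, 22.7 and 23.8 CPM in Ctrl replicates 1, 2 and 3. The groups stood clear of each other, and Herc6 fell by 0.69 ± 0.15 on the log2 scale (edgeR adjusted p = 0.0306). Leaving out any one Ctrl library gave an adjusted p of 0.114 to 0.148. Isg15 was at 25.6, 11.5 and 11.7 CPM in ZM replicates 1, 2 and 3, against 37.1, 27.8 and 37.0 CPM in Ctrl replicates 1, 2 and 3. Here ZM replicate 1 was at more than double the level of the other ZM libraries and just below Ctrl replicate 2. The log2 fold change of Isg15 was −1.06 ± 0.32 and did not pass (edgeR adjusted p = 0.0716), although without ZM replicate 1 it did (−1.55, 0.0202). Usp18 had the same uneven ZM libraries, at 17.6, 8.27 and 8.31 CPM in ZM replicates 1, 2 and 3, against 18.8, 14.0 and 17.4 CPM in Ctrl replicates 1, 2 and 3 (edgeR adjusted p = 0.243).

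Among the antiviral proteins of other kinds, Ifi44 and Rtp4 fell. Ifi44, a microtubule-associated antiviral gene, was at 8.49, 4.62 and 4.75 CPM in ZM replicates 1, 2 and 3, against 15.5, 11.5 and 15.5 CPM in Ctrl replicates 1, 2 and 3. It fell by 1.25 ± 0.26 on the log2 scale, the largest change of the called genes (edgeR adjusted p = 0.0289). Rtp4, an inhibitor of viral genome amplification, was at 76.2, 36.7 and 34.9 CPM in ZM replicates 1, 2 and 3, against 124, 95.3 and 127 CPM in Ctrl replicates 1, 2 and 3. It fell by 1.23 ± 0.30 (edgeR adjusted p = 0.0439), with ZM replicate 1 again at about double the other ZM libraries. Without any one Ctrl library the adjusted p was 0.0806 to 0.131 for Ifi44 and 0.115 to 0.166 for Rtp4. The other 5 genes of this group did not pass. Xaf1 (−0.66) and Samd9l (−0.54) did not overlap between groups, with edgeR adjusted p of 0.0576 and 0.121. Trim30a, Ifi35 and Ifi27l2a lay between −0.22 and −0.06 on the log2 scale, with overlap.

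**Figure D4:**
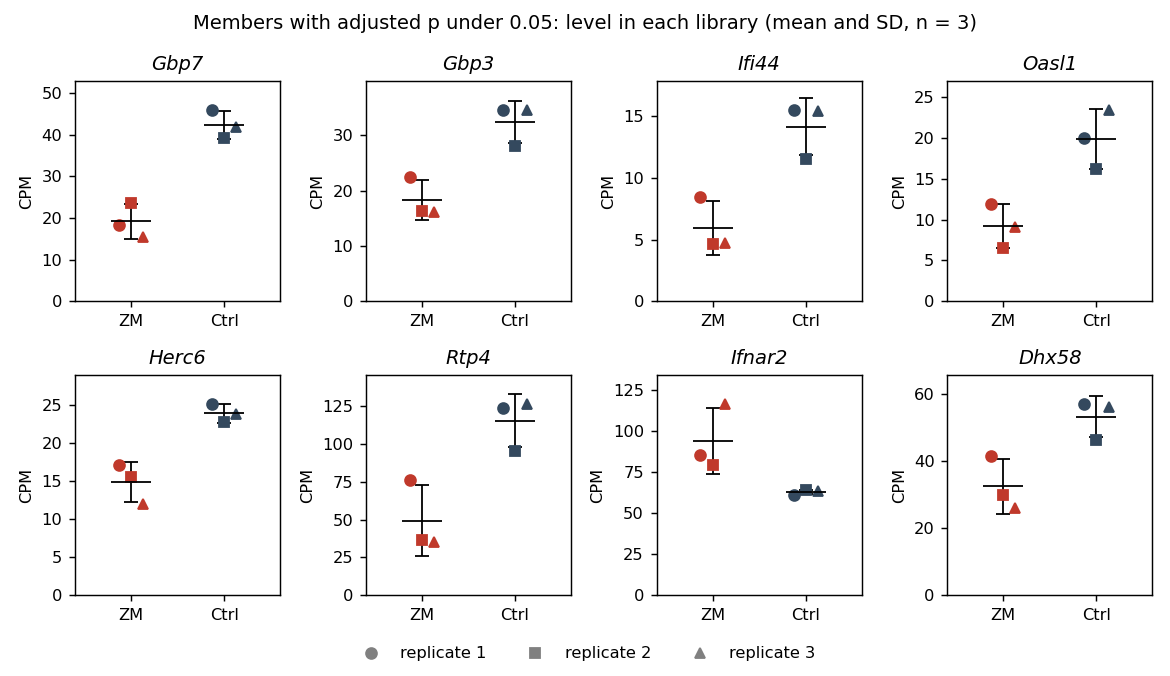
CPM of the 8 called genes in each library, ZM at the left and Ctrl at the right of each panel, with the mean and SD (n = 3) as bars. In the 7 genes that fell every ZM library is below every Ctrl library, and in Ifnar2 every ZM library is above them, for example 79.5 to 117 CPM in ZM against 61.3 to 63.9 CPM in Ctrl.

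The IFIT genes, whose proteins bind foreign RNA ends and block translation, sit in 1 cluster of 99.3 kb on chromosome 19. None of the 4 was called by edgeR, although 2 had an unadjusted p under 0.05 and 2 were called by DESeq2, all lower, and their median log2 fold change was −0.61. Ifit1 averaged 15.8 ± 3.74 CPM in ZM cells and 25.0 ± 6.49 CPM in Ctrl cells (edgeR adjusted p = 0.105). Ifit3b was at 2.34, 1.76 and 2.50 CPM in ZM replicates 1, 2 and 3, against 3.88, 3.10 and 4.08 CPM in Ctrl replicates 1, 2 and 3, and was the one gene of the cluster without overlap (−0.75 ± 0.21, edgeR adjusted p = 0.0616). Ifit3 and Ifit3b share 51.2% and 44.5% of their 50-base words, so reads may be split between them. Their sum gave −0.57 ± 0.24 (edgeR adjusted p = 0.144). Ifit2 averaged 27.1 CPM in ZM cells and 30.1 CPM in Ctrl cells (edgeR adjusted p = 0.459).

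The nucleotide-related enzymes Rsad2 (viperin, which makes a chain-terminating nucleotide), Cmpk2 and the exonuclease gene Isg20 had log2 fold changes of −0.46, −0.56 and −0.48, and edgeR adjusted p of 0.0702, 0.0964 and 0.250. None of the 3 passed in edgeR, while DESeq2 called 2 of them lower and 2 had an unadjusted p under 0.05. Rsad2 and Cmpk2 lie within 37.1 kb on chromosome 12 and did not overlap between groups, whereas Isg20 did. Parp14, Parp9 and Dtx3l, of a ubiquitin and ADP-ribosylation pathway, lie within 139.7 kb on chromosome 16 and were at −0.55, −0.43 and −0.44 (edgeR adjusted p of 0.0991, 0.113 and 0.0558). All 3 had an unadjusted p under 0.05, and DESeq2 called 2 of them lower. Exons of Parp9 and Dtx3l overlap by 458 bases on opposite strands, so part of their counts cannot be assigned. The dynamin-like GTPase genes Mx1 (−0.10) and Mx2 (−0.45) did not pass and overlapped, and Mx2 is annotated as a polymorphic pseudogene in GENCODE M21, whose assembly is from C57BL/6.

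The membrane restriction genes Ifitm3 and Bst2 had the highest levels per length, and Ifitm2 the largest positive fold change of the set. Ifitm2 was at 53.7, 36.9 and 102 CPM in ZM replicates 1, 2 and 3, against 30.7, 31.1 and 35.5 CPM in Ctrl replicates 1, 2 and 3. ZM replicate 3 was almost double the next ZM library, and ZM replicate 2 was just above the highest Ctrl library. The log2 fold change of Ifitm2 was 0.98 ± 0.33 and did not pass (edgeR adjusted p = 0.0954), and without ZM replicate 3 it was 0.48. Ifitm3 was at 409, 259 and 445 CPM in ZM replicates 1, 2 and 3, against 427, 366 and 468 CPM in Ctrl replicates 1, 2 and 3 (−0.18, edgeR adjusted p = 0.554). The groups overlapped, and the same holds for Bst2, at 224, 143 and 249 CPM in ZM replicates 1, 2 and 3, against 190, 163 and 219 CPM in Ctrl replicates 1, 2 and 3 (0.11, edgeR adjusted p = 0.745). The counts of Ifitm2 and Ifitm3 summed gave −0.06 ± 0.22 (edgeR adjusted p = 0.867). Ifitm2 and Ifitm3 share 3.3% and 3.2% of their 50-base words. Most of the summed counts are those of Ifitm3, so the sum says little on Ifitm2. Ifitm2 shares 36.1% of its 50-base words with Gm45717, an annotated gene of similar sequence, which the table could not separate with certainty.

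**Figure D5:**
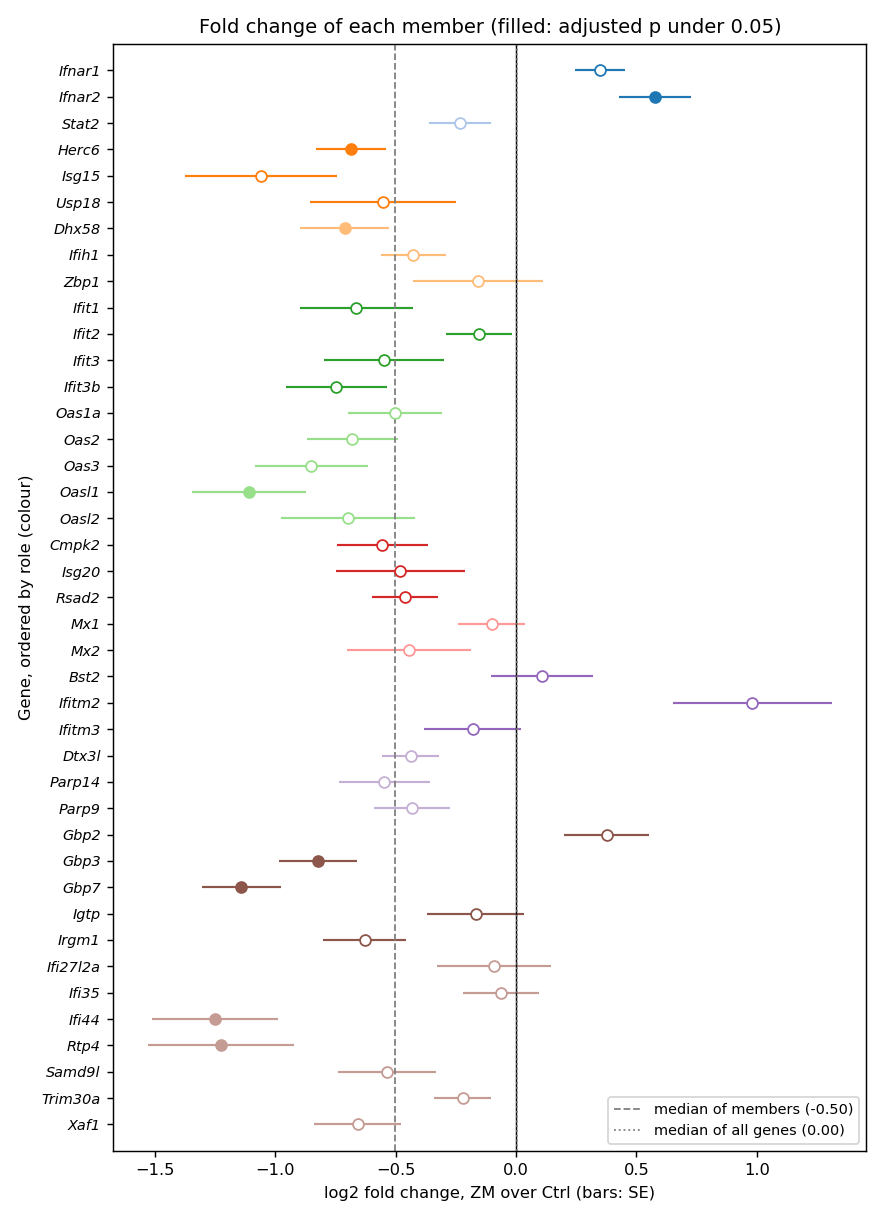
Log2 fold change of each of the 41 genes, ZM over Ctrl, with SE as bars, coloured by role, and filled where the edgeR adjusted p is under 0.05. The dashed line is the median of the 41 genes (−0.50) and the dotted line that of all genes tested (0.00), and Ifitm2 (0.98) and Ifnar2 (0.58) lie farthest to the right.

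Around these genes, other parts of the interferon pathway were counted from further lists. Of 21 interferon genes listed, 2 were counted: Ifnb1 had 2 counts in Ctrl replicate 3 and Ifnk had 2 counts in Ctrl replicate 1, with 0 in all other libraries, and the other 19 were not analysed here. No fold change is given at such counts. Of the 19 genes of receptors, kinases, STATs and their regulators, 2 rose and none fell, against 5.54% higher and 5.44% lower among all genes tested. Their median log2 fold change was 0.12. At an unadjusted p under 0.05, 8 were higher and 1 was lower, and DESeq2 called 5 higher and 0 lower. Ifngr1, a chain of the interferon gamma receptor, was at 262, 238 and 478 CPM in ZM replicates 1, 2 and 3, against 118, 126 and 116 CPM in Ctrl replicates 1, 2 and 3. It rose by 1.44 ± 0.25 on the log2 scale (edgeR adjusted p = 0.0172), with ZM replicate 3 the highest. Ptpn6, the SHP-1 phosphatase that dampens JAK signals, averaged 479.9 ± 39.7 CPM in ZM cells and 349.7 ± 2.94 CPM in Ctrl cells and rose by 0.46 (edgeR adjusted p = 0.0273). Ifngr2 averaged 211 CPM in ZM cells and 155 CPM in Ctrl cells and did not pass (0.45, edgeR adjusted p = 0.0678). Without any one Ctrl library neither call held (0.0858 to 0.100 for Ifngr1, 0.136 to 0.150 for Ptpn6), and without ZM replicate 1 that of Ptpn6 was also lost (0.0838), as it was with the replicate block (0.0526).

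The next list held 24 tested genes of innate sensing, of its path to interferon and of the regulation of that path. Of these, 5 rose and 1 fell, with a median log2 fold change of 0.06. Among all genes tested, 5.54% were higher and 5.44% lower. Ikbke, the IKK-epsilon kinase that acts on IRF3, averaged 110.2 ± 18.7 CPM in ZM cells and 54.5 ± 1.95 CPM in Ctrl cells (1.01, edgeR adjusted p = 0.00678). Tlr13, a sensor of bacterial ribosomal RNA, averaged 283 ± 27.9 CPM in ZM cells and 178 ± 3.17 CPM in Ctrl cells (0.67, edgeR adjusted p = 0.0101). Ticam2, an adaptor of TLR4, averaged 23.8 ± 4.23 CPM in ZM cells and 12.6 ± 0.446 CPM in Ctrl cells (0.92, edgeR adjusted p = 0.0115). Unc93b1, which carries endosomal receptors to their site, averaged 701 ± 207 CPM in ZM cells and 351 ± 9.41 CPM in Ctrl cells (1.00, edgeR adjusted p = 0.0235). Named after their values were seen, the other gene that rose was Sting1 (0.76, edgeR adjusted p = 0.0301), the adaptor of DNA sensing, and the gene that fell was Trim25 (−0.65, edgeR adjusted p = 0.0263), a ubiquitin ligase of RNA sensing. The list went both ways: at an unadjusted p under 0.05, and also by DESeq2, 7 genes were higher and 4 lower, and 11 of the 24 had a negative fold change. Leaving out Ctrl replicate 1 or 3 left none of the 4 called, leaving out Ctrl replicate 2 left Ikbke, and Unc93b1 was also lost without ZM replicate 1 (0.0608). The adjusted p over the Ctrl libraries left out was 0.0471 to 0.0595 for Ikbke, 0.0723 to 0.0803 for Tlr13, 0.0700 to 0.0796 for Ticam2 and 0.107 to 0.120 for Unc93b1.

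Of 70 tested interferon-stimulated genes outside the 41, 5 fell and none rose, against 5.44% lower and 5.54% higher among all genes tested. Their median log2 fold change was −0.19. At an unadjusted p under 0.05, 23 were lower and 5 were higher, and DESeq2 called 15 lower and 1 higher. Ly6a, the gene of the Sca-1 surface antigen, was at 31.1, 18.5 and 22.4 CPM in ZM replicates 1, 2 and 3, against 79.2, 54.6 and 81.5 CPM in Ctrl replicates 1, 2 and 3. It fell by 1.58 ± 0.23 on the log2 scale (edgeR adjusted p = 0.00921), and Ctrl replicate 2 was the lowest Ctrl library here too. The Schlafen genes Slfn5 (−0.73, edgeR adjusted p = 0.0105) and Slfn4 (−1.15, edgeR adjusted p = 0.0273) and the interferon-inducible gene Ifi213 (−1.02, edgeR adjusted p = 0.0301) fell as well, and so did Ifi206 (−1.24, edgeR adjusted p = 0.0334), named after its value was seen. Eif2ak2, the gene of the kinase PKR, averaged 67.5 CPM in ZM cells and 107 CPM in Ctrl cells and did not pass (−0.66, edgeR adjusted p = 0.0785). Of 10 further guanylate-binding and immunity-related GTPases, 2 fell and none rose, against the same 5.44% and 5.54%, with a median log2 fold change of −0.41. At an unadjusted p under 0.05, 5 were lower and 0 higher, and DESeq2 called 3 lower and 0 higher. The 2 that fell were Gbp4 (−1.49, edgeR adjusted p = 0.00921) and Gbp9 (−1.15, edgeR adjusted p = 0.0342). Without Ctrl replicate 1 or 3 none of Ly6a, Slfn5, Slfn4, Ifi213, Gbp4 and Gbp9 was called, without Ctrl replicate 2 Ly6a (0.0286) and Slfn5 (0.0478) were, and without ZM replicate 1 Slfn4 (0.0555) and Gbp9 (0.0693) were not. The adjusted p without 1 Ctrl library reached at most 0.0614 for Ly6a, 0.0759 for Slfn5, 0.137 for Slfn4, 0.141 for Ifi213, 0.0626 for Gbp4 and 0.133 for Gbp9.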

How the data were processed

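RNA was sequenced from 6 libraries of mouse bone marrow-derived macrophages, 3 ZM and 3 Ctrl, grouped by their labels. The authors deposited whole-number counts per gene, not normalized, and FPKM values, which equal the counts over gene length and library total. The submitters' processing notes name HISAT2 2.2.1, featureCounts 2.0.3, Subread, DESeq2 and mm10; for the strand setting and the annotation, sources used here say nothing. Small counts were mostly even (72.7% to 76.4% of those from 1 to 20 in each library), as when a read pair counts as 2, so fragments are fewer than counts. The 156 entries without a symbol held 0.0024% of the counts.

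The test was run in edgeR 4.0.16 (R 4.3.3): filterByExpr with the group, TMM, the quasi-likelihood F test on group, and Benjamini-Hochberg adjustment over 15590 genes at a threshold of 0.05. CPM is on the TMM-scaled library size, and SE is the size of the log2 fold change over the square root of F. FPKM served for levels and entered no test. Positions are from GENCODE M21 on GRCm38 and promoter windows from RefSeq (GRCm38.p6). Shared sequence is the percentage of 50-base words of a gene's transcripts found in another gene. The steps were tested on simulated counts. Alternatives were DESeq2 1.42.0, limma-voom (limma 3.58.1), other size factors and filters, counts divided by 2, summed near-copies, a replicate block and each library left out; leaving out libraries for the further lists, and counts per list by unadjusted p and by DESeq2, were chosen after seeing the data.

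All 41 members are accounted for, with fuller values for called genes and, of the others, the 6 most abundant by FPKM and the 6 with the largest fold change; from each further list, up to 4 called genes with the smallest adjusted p and 6 fixed pathway genes; 1 further pathway gene is not reported here. The members and lists were chosen with earlier results of these data known.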

Additional observations from a re-analysis of the deposited data

How the results depend on the processing

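The count of genes called in all was 1711, 3295 with DESeq2 and 148 to 5023 with 1 library left out. The count of the 41 genes called lower was 7, and it was 12 without a filter (3.74% of all genes lower), 19 with DESeq2 (10.2%), 15 with the replicate block (5.58%) and 0 to 17 with 1 library left out. It was 0 without Ctrl replicate 1 (0.872% of all genes lower) or Ctrl replicate 3 (0.728%), and 17 without ZM replicate 3 (9.56%). The count called higher was 1, and it was 0 with DESeq2-style size factors, 0 with at least 1 CPM in every library, 0 with limma-voom, 2 without a filter, 3 with DESeq2 and 0 to 3 with 1 library left out. Their median log2 fold change stayed between −0.66 and −0.36. With 1 library left out, the receptor and STAT list had 0 to 7 genes called higher and 0 to 2 lower, the sensing list 0 to 8 and 0 to 4, the other interferon-stimulated genes 0 to 9 and 0 to 11, and the further GTPases 0 to 1 and 0 to 2. Each of these maxima was reached without ZM replicate 2, where 16.1% of all genes tested were called higher and 15.3% lower. The causes were not tested. Same-numbered ZM and Ctrl libraries correlated in their deviations at 0.0306, 0.0470 and 0.107, and ZM replicate 2 was closest to Ctrl replicate 1 (0.0889), so the numbers were not taken as pairs.

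Direction changed in 7 genes, none of them called, with 1 library left out: the log2 fold change ran from −0.255 to 0.0485 for Ifi35, −0.264 to 0.135 for Ifi27l2a, −0.329 to 0.0226 for Ifitm3, −0.0519 to 0.313 for Bst2, −0.424 to 0.0751 for Zbp1, −0.309 to 0.00480 for Igtp and −0.00556 to 0.0195 for Tyk2. Tyk2 was also at −0.000288 with DESeq2-style size factors, −0.0606 without a composition factor (which moved the median of all genes to −0.06), −0.0141 with at least 1 CPM and −0.000287 with DESeq2. Depth did not remove any of the 41 genes from the test.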
